A study of Mus musculus with 4 samples.

Results

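Cytosolic ribosomal protein genes encode the proteins of the cytoplasmic ribosome. The members described here are the 86 genes that have at least 1 transcript typed protein_coding and a symbol of the form Rpl or Rps followed by a digit, or Rplp0, Rplp1, Rplp2 or Rpsa. S6 kinase symbols (Rps6k) and symbols that hold -ps were left out. They were 86 of 55536 annotated genes in the main gene table and 86 of its 22015 nuclear protein-coding genes, 52 with large subunit symbols and 34 with small subunit symbols. Rps19bp1 fits the symbol rule, but it encodes a nucleolar protein that binds the Rps19 protein and is not itself a part of the ribosome.

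PolyA-selected RNA was sequenced from inflammation-experienced regulatory T cells (Treg), CD4 T cells that restrain immune responses. The single group held 4 libraries from a male adult mouse of 6 months, strain Foxp3CreERT2 x Rosa26YFP, whose name gives an inducible Cre recombinase at Foxp3 and a YFP reporter at Rosa26. All came from 1 biological replicate, carry technical replicate numbers 1 to 4 (libraries 1 to 4 here) and were sheared by Covaris; the labels name a bone marrow hematopoietic cell as the origin of these primary cells. No other condition was labelled, so any spread is that between libraries of 1 source and may be technical.

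Each ribosome holds about equal numbers of almost all its proteins, so their genes are transcribed at high and coordinated levels. Most of these mRNAs begin with a C followed by an uninterrupted run of pyrimidines, the 5′ terminal oligopyrimidine (TOP) motif, through which mTOR signalling and the RNA-binding protein Larp1 control their translation. T cells raise ribosome production when they are activated. Mammalian genomes also hold many processed pseudogenes of these genes, which share long stretches of sequence with them and make reads hard to assign.

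Because so many members have near-copies, the sequences of the Rps27 family are shown first. Rps27 lies at chr3:90212522-90213651 on the minus strand, Rps27rt at chr9:114982366-114982739 on the minus strand and Rps27l at chr9:66946086-66949516 on the plus strand (GRCm38). Over the 252 coding bases before the stop codon, Rps27rt differed from Rps27 at 0 positions, and Rps27l differed at 60 positions (76.2% identity). Capitals in the second line mark the bases of Rps27l that differ from Rps27.
Rps27 and Rps27rt: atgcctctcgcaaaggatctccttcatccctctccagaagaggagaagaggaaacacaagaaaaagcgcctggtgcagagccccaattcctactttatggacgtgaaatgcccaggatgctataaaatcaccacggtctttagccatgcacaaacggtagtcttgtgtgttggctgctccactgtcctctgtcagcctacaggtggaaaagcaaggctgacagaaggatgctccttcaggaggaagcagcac
Rps27l: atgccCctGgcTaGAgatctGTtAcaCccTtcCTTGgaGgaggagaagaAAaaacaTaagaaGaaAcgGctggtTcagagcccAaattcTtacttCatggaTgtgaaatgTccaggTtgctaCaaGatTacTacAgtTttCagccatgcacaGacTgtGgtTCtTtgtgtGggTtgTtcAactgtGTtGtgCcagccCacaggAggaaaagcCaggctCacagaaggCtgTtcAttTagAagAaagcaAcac

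Start sites were read from the RefSeq promoter table (GRCm38.p6), in which 66 of the 86 members were matched. A pyrimidine run of at least 6 bases that opens with a C and starts from 10 bases before to 10 bases after an annotated start was present in 35 of 66 members (53%), against 5910 of 27025 genes of the table (21.9%) and 22.3% of its protein-coding genes. The motif CCGGAAG, a core bound by ETS factors, was sought on either strand of the 300-base promoter. It was found in 39.4% of members, against 9.93% of all genes and 12.9% of protein-coding genes. The TATA box letters TATAAA were found on either strand in 10.6% of members, against 15.7% of all genes and 14.8% of protein-coding genes. These are shares of letters in annotated windows, and neither transcription start nor factor binding was measured. The 7 windows below, each from 10 bases before to 20 bases from the annotated start on the gene's strand, were chosen to show long and short runs (capitals) and a highly expressed gene with none.
Rpl27a, chr7:109519185-109519214, plus strand: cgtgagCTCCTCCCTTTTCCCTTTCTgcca
Rpl35, chr2:39005112-39005141, minus strand: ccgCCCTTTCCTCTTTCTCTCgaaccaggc
Rpl13a, chr7:45128726-45128755, minus strand: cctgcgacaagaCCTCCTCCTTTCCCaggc
Rps18, chr17:33955646-33955675, minus strand: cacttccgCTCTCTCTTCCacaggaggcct
Rps27, chr3:90213629-90213658, minus strand: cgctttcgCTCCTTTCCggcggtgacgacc
Rps27rt, chr9:114982720-114982749, minus strand: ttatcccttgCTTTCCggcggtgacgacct
Rpl41, chr10:128549149-128549178, minus strand: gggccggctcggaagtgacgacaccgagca

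The run of Rpl27a was the longest among the matched members, at 20 bases. The matched members with a run had a median level of 1270 TPM (n = 35) and those without one had a median of 1457 TPM (n = 31), and no test of that difference was made. TPM, a level per length, divides counts by effective length and scales each library to the same total.

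The members made up a large part of the coding transcriptome. In libraries 1 to 4 they took 20.8%, 24.0%, 22.1% and 22.6% of the TPM of nuclear protein-coding genes, 22.4 ± 1.29% (SD, n = 4). Library 2 had the highest share and library 1 the lowest. Their share of expected counts was 7.02 ± 0.634%, taken over all annotated genes and not only the nuclear protein-coding ones. The members are also short. The median effective length of the 83 members with a mean count of at least 10 was 446 bases. It was 2113 bases for 9870 other nuclear protein-coding genes of at least 1 TPM in every library. How much of the lower share comes from length and how much from the wider set of genes was not tested. The median member stood at 1479 TPM, against 18.0 TPM for the 10552 nuclear protein-coding genes with a mean of at least 1 TPM. By mean TPM, members filled 55 of the first 100 places among nuclear protein-coding genes and 31 of the first 50.

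Levels were far from equal within the set. Of 86 members, 83 reached 10 TPM in every library, 80 reached 100 TPM and 56 reached 1000 TPM. Among the 80 genes of at least 100 TPM the highest mean was 89.2 times the lowest, and the SD of the log2 level was 1.23. The lowest of them was Rps27l, the relative of Rps27 shown above, at 117 TPM. The 10 highest members held 36.3% of the TPM of the set.

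**Figure D1:**
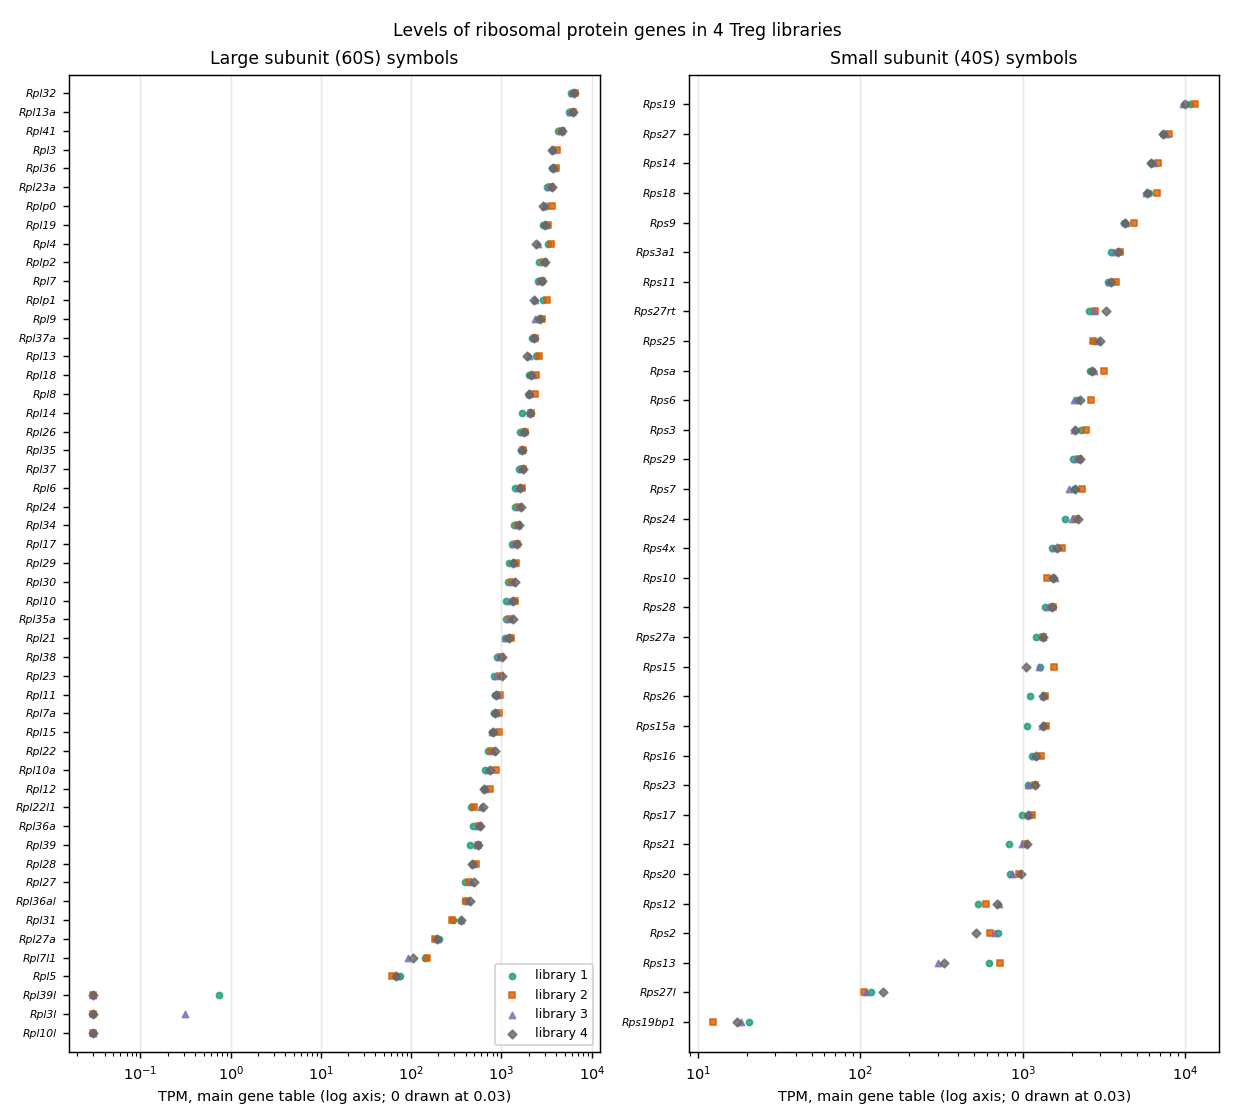
TPM of single members in the main gene table (horizontal log axis, 0 drawn at 0.03), with 1 point per library, in panels of large and small subunit symbols and ordered by mean level. The median member lies at 1479 TPM, Rps13 splits into 2 pairs of libraries, and Rpl39l, Rpl3l and Rpl10l lie at or near 0.

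Among large subunit genes, Rpl32 had 5964, 6612, 5977 and 6323 TPM in libraries 1 to 4. Library 2 was the highest and library 1 the lowest. The mean of Rpl32 was 6219 ± 310 TPM (SD, n = 4), with Rpl13a at 5948 ± 298 TPM. Rpl13a is known in human cells also for a role outside the ribosome, in silencing inflammatory mRNAs. Rpl41, which encodes the smallest ribosomal protein (75 coding bases), stood at 4571 ± 232 TPM, and Rpl3, which reaches into the catalytic centre, at 3805 ± 235 TPM. The stalk proteins, which recruit the GTPase translation factors, had similar levels, with Rplp0 at 3152 ± 329, Rplp2 at 2891 ± 195 and Rplp1 at 2680 ± 426 TPM.

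Among small subunit genes, Rps19 led the whole set with 10684, 11500, 9638 and 9930 TPM in libraries 1 to 4. RPS19 is the gene most often mutated in Diamond-Blackfan anaemia. It ranked second among all nuclear protein-coding genes, with library 2 highest and library 3 lowest. Rps27 followed at 7518 ± 306 TPM (SD, n = 4), Rps14, whose human counterpart lies in the interval lost in the 5q- syndrome, at 6388 ± 300, Rps18 at 6048 ± 406 and Rps9 at 4399 ± 296 TPM. Rpsa, also known as a laminin receptor, stood at 2778 ± 247 TPM.

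The median large subunit gene was lower than the median small subunit gene in every library, by −0.27, −0.16, −0.20 and −0.13 in log2(TPM + 0.1), a mean of −0.19 ± 0.060 (SD, n = 4). The exact two-sided sign-flip permutation test gave p = 0.13, the smallest it can give with 4 libraries, so no call is possible. Without the members under 1 TPM in any library, all of them large subunit symbols, the difference was −0.079. Spread within each subunit was much larger than this difference. Rps19bp1 was counted with the small subunit symbols in these medians.

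At the low end, 3 derived copies were at or near 0 counts. Rpl10l, an intronless copy of Rpl10 known from male germ cells, had 0 expected counts in all 4 libraries. In library 1 it had 1 read-based count and 4 M4 counts, and in the other libraries 0 in both tables. A count of 0 allows up to 3 counts in a library. Rpl3l, the striated muscle copy of Rpl3, had 1 expected count in library 3 and 0 in the others. Rpl39l, known from testis, had 2 expected counts in library 1 and 0 in the others. Rps4l, a copy of Rps4x outside the symbol rule, had 4, 3, 0 and 7 counts in libraries 1 to 4. Rps19bp1 stood at 17.3 ± 3.52 TPM (SD, n = 4).

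Other derived copies were expressed, at unequal ratios to their parents. Rpl22l1 had 458, 498, 600 and 626 TPM in libraries 1 to 4, and Rpl22 had 704, 756, 805 and 845 TPM. Both belong to a pair with opposing roles known from mouse T cell development, and Rpl22l1 was the lower in every library, by −0.52 ± 0.11 on the log2 scale of TPM + 0.1 (SD, n = 4). Rpl36al was lower than Rpl36a by −0.37 ± 0.073. Rpl7l1, whose product is nucleolar, was lower than Rpl7 by −4.50 ± 0.34, with 142, 148, 91.2 and 105 TPM in libraries 1 to 4. Rps27l, a target of p53, was lower than Rps27 by −6.01 ± 0.22. Each of these ratios gave p = 0.13 in the exact two-sided sign-flip permutation test, and 0.13 after Benjamini-Hochberg adjustment over 9 pairs, the smallest value possible. Directions were the same in the other quantifications, but sizes were not: from M4 counts Rpl36al over Rpl36a was −1.30 and Rpl7l1 over Rpl7 was −5.16.

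The libraries were next compared on the counts. Library 4 was the shallowest, at 6648385 expected counts, so unscaled counts run lower in it. Rounded expected counts were divided by TMM-scaled library sizes, and a Poisson likelihood ratio test asked whether a gene's share differed between the 4 libraries beyond counting error. Of the 83 members with a mean count of at least 10, 78 (94.0%) differed at an adjusted p under 0.05, against 68.4% of the 13045 genes tested. Of 1179 other nuclear protein-coding genes of at least 100 TPM, 92.0% did. The median SD between libraries in excess of counting error was 0.16 in log2 for the members, 0.22 for all genes tested and 0.16 for the other abundant genes. Without library 2 the members' value was 0.080.

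Almost all members were highest in library 2. This held for 74 of 83 members, against 29.7% of all genes tested. By symbol these were 45 of 49 large subunit and 29 of 34 small subunit members, Rps19bp1 being counted among the latter 34. The members' median deviation from their own mean was −0.12, 0.21, −0.070 and −0.012 in log2 for libraries 1 to 4, and that of all genes tested was 0.018, 0.025, −0.0095 and −0.018. Library 1 was the lowest in 57 of 83 members, against 25.8% of all genes tested. Under scalings chosen after the data were seen, library 2 was the highest in 71 members with DESeq2 size factors, 59 with total counts and 54 on the TPM scale, against 27.0%, 21% and 15.5% of all genes tested. In the read-based table it was the highest in 72 of 83 members, against 26.4% of 17329 genes, and in the M4 table in 60 of 83 members, against 29.3% of 10877 genes.

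**Figure D2:**
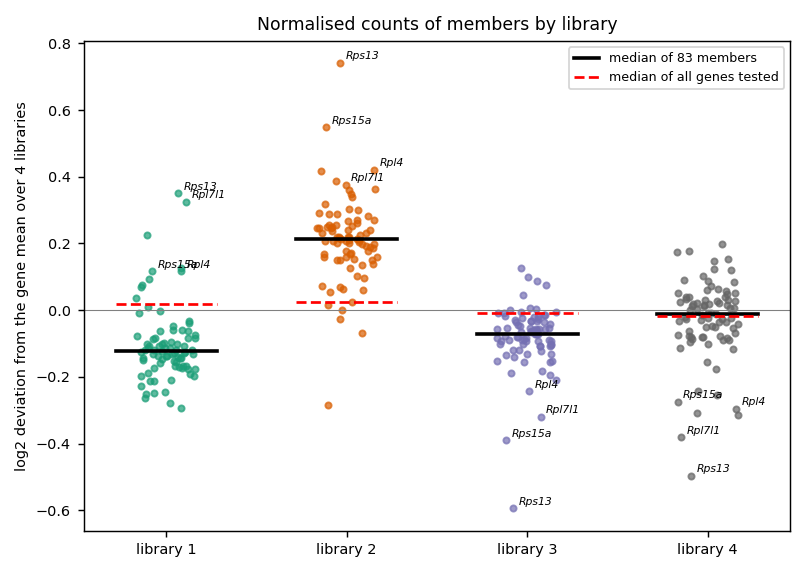
Deviation of each of the 83 tested members from its own mean over the 4 libraries, in log2 of TMM-scaled CPM plus 1, by library. Black bars are medians of the members (−0.12, 0.21, −0.070 and −0.012) and dashed red lines are medians of all genes tested, which lie near 0.

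Other features of the libraries moved beside this. Summed TPM of 6 erythroid markers was 1067, 4.6, 38.6 and 17.5 in libraries 1 to 4. Hba-a1 was at 0 in library 2, Hbb-bt at 0 in library 4 and the myeloid S100a9 at 0 in libraries 2, 3 and 4. Summed TPM of 5 B cell markers was 177, 125, 79.0 and 149, that of 5 myeloid markers 33.1, 6.18, 4.75 and 16.8, and that of 2 CD8 T cell markers 17.3, 10.1, 12 and 15.7. The mitochondrial chromosome held 2.73%, 3.75%, 3.64% and 3.90% of expected counts. Their part in the members' library differences was not tested, and in bulk RNA fewer cells of a type and less RNA per cell cannot be told apart. All 6 Treg and T cell markers listed were above 1 TPM in every library, with Cd3e at 1385 ± 107 TPM (SD, n = 4). Foxp3 had 20.3, 21.7, 32.8 and 36.4 TPM in libraries 1 to 4, and Ikzf2 had 279, 350, 562 and 457 TPM. Cd4 had 516, 495, 309 and 318 TPM. Foxp3 and Ikzf2 were thus lower, and Cd4 higher, in libraries 1 and 2 than in libraries 3 and 4. The 4 progenitor markers summed to 0.950 to 1.44 TPM.

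Only 1 member of 83 (1.20%) was both called and over 2-fold apart between its highest and lowest library, against 15.4% of all genes tested and 3.48% of the 1179 other nuclear protein-coding genes of at least 100 TPM. The median ratio of the highest to the lowest library was 1.29 both for the members and for those other abundant genes. The member over 2-fold apart was Rps13, a small subunit protein at the interface of the subunits, at chr7:116331505-116334195. Rps13 had 621, 719, 302 and 329 TPM in libraries 1 to 4, with library 2 the highest, library 1 next and libraries 3 and 4 far lower. Its excess SD was 0.65 in log2 and its adjusted p was 3.59e-200 in the Poisson likelihood ratio test. The next in spread were Rps15a (0.43), Rpl7l1 (0.41), Rpl4, which lines the exit tunnel (0.34), Rps15 (0.30), Rplp1 (0.30), Rpl13 (0.28) and Rpl10a (0.25). In the read-based table the ratio of the highest to the lowest library fell to 1.29 for Rpl13 and 1.26 for Rpl10a, from 1.52 and 1.49. It rose there only for Rps13 (3.71, from 2.54) and Rplp1 (1.63, from 1.56) among these genes.

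Rpl4, the longest member by coding length (1257 bases), had 3245, 3538, 2533 and 2428 TPM in libraries 1 to 4. Rplp1 had 2878, 3184, 2382 and 2277 TPM. Both were higher in libraries 1 and 2 than in libraries 3 and 4, as were 15 of 83 members in normalised counts (18.1%), against 27.0% of all genes tested. This count depended on the quantification. In the read-based table it was 35 of 83 members, against 24.7% of all genes tested. In the M4 table it was 6 of 83, against 23.9%. At the other end, 5 members had no call between libraries. Rps10, a site of ubiquitination on stalled ribosomes, had an adjusted p of 0.693 in the Poisson likelihood ratio test, and its normalised counts differed by 1.03 times between the highest and the lowest library. Rpl5 had an adjusted p of 0.412 in the same test, and the others without a call were Rpl27a, Rps27l and Rps19bp1.

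The split of Rps13 had a mirror image in a pseudogene. Rps13-ps1 is the gene closest to Rps13, sharing 79.2% of the 31-base words of its coding transcript. Rps13-ps1 had 1629, 2138, 4021 and 3037 expected counts in libraries 1 to 4, and Rps13 had 1911, 2461, 1063 and 804. Rps13 thus held 54.0%, 53.5%, 20.9% and 20.9% of the counts of the pair. Its share in the read-based table was 52.8%, 49.4%, 10.8% and 11.6%. The sum of the pair differed between the highest and the lowest library by 1.43 times, against 2.54 times for Rps13 alone. In the M4 counts, made from a genome alignment, Rps13 differed by 1.47 times, with 4801, 6122, 4400 and 3602 counts. No M4 count was matched to Rps13-ps1, so the pair could not be compared there.

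**Figure D3:**
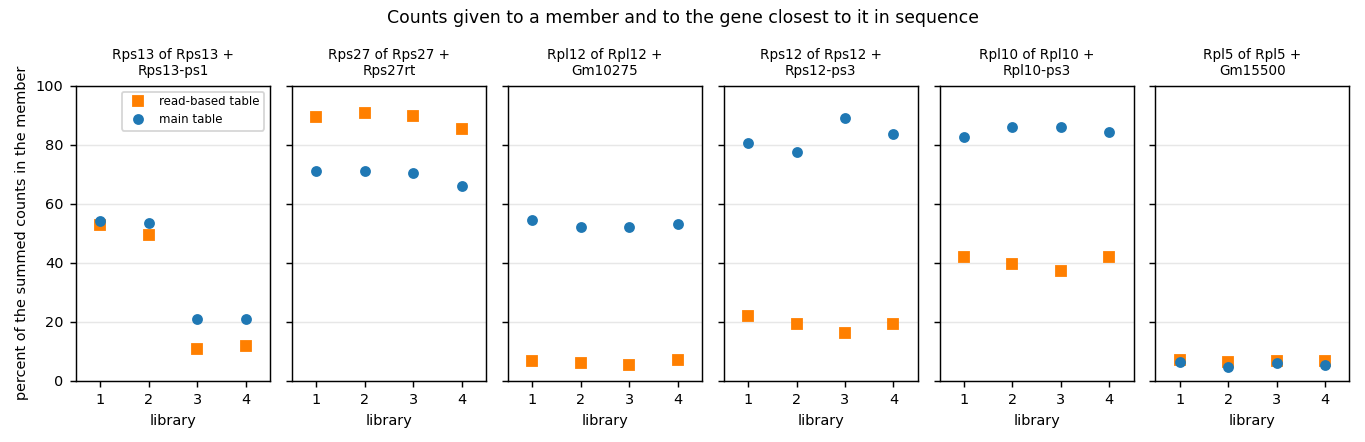
Percent of the summed counts of a member and its closest gene that went to the member, by library, in the read-based table (orange squares) and the main table (blue circles), for Rps13 and 5 members with large differences between tables. Rps13 falls to 20.9% in libraries 3 and 4 against about 54% in libraries 1 and 2, while the shares of Rpl12, Rps12 and Rpl10 differ between tables more than between libraries and Rpl5 is low in both tables.

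Rps15a, a small subunit protein, differed between libraries at the level of transcripts. Its TPM was 1065, 1380, 1313 and 1323 in libraries 1 to 4, lowest in library 1, while its expected counts were 3688, 4882, 2787 and 2135. In normalised counts library 3 was the lowest, with log2 deviations from the gene's mean of 0.12, 0.55, −0.39 and −0.27. Transcript Rps15a-201 (640 bases) held 99.5%, 91.7%, 48.3% and 52.7% of the gene's TPM. The short transcript Rps15a-203 (250 bases, also typed protein_coding) held 0%, 7.74%, 51.1% and 46.8%. The rise of Rps15a-203 rested on few reads: it had 0, 69.9, 428 and 291 expected counts, which TPM divides by a short length. Rps15a-201 had 3534, 4657, 2261 and 1775 expected counts in libraries 1 to 4, and 1060, 1265, 634 and 697 TPM. The change in share thus also came with a lower level of the long transcript in libraries 3 and 4. In the read-based table Rps15a-203 held 55.8%, 58.6%, 69.9% and 68.5% of TPM, so its absence in library 1 was not found there. Across the 83 members compared, the leading transcript's share moved by a median of 2.28 percentage points between the highest and the lowest library, and it moved by over 10 points in 3 of them, Rps15a, Rpl7l1 and Rpl19, the last named after its value was seen.

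How far a level depends on the quantification was read from the deposited tables. Beside the main table there was a read-based transcript table of estimated counts, summed per gene, and a table of whole-number gene counts on GENCODE M4. Counts scaled to the total over 22195 matched genes were compared as log2(CPM + 1), and a gene was called where it was at least 2-fold apart in 1 direction in all 4 libraries. No p is given, since the tables describe the same reads. M4 counts were lower than expected counts in 2 of 83 members (2.41%), against 11.5% of 11385 genes compared, and higher in 6 members (7.23%), against 2.20%. Read-based counts were lower in 3 members (3.61%), against 0.229% of 12652 genes compared, and higher in 3 members (3.61%), against 6.23%. At a limit of 1.5-fold, M4 counts were lower in 4 members, against 18.6% of all genes compared, and higher in 22 members, against 16.2%. Read-based counts were higher in 12 members at that limit, against 10.9%. The median absolute log2 difference was 0.41 for members and 0.52 for all genes with M4 counts, and 0.35 for members and 0.13 for all genes with read-based counts.

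**Figure D4:**
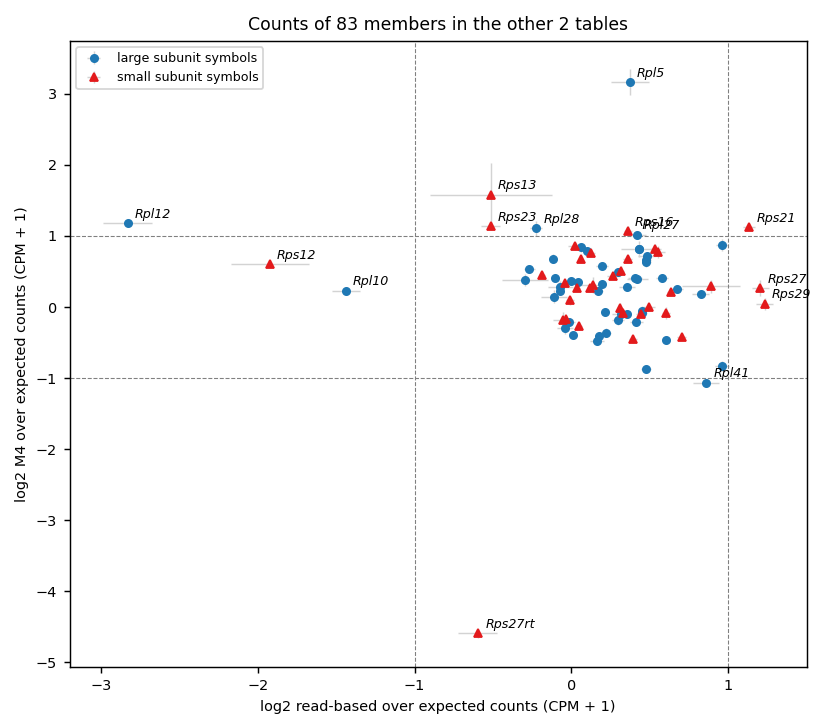
Log2 ratio of read-based over expected counts (horizontal) and of M4 over expected counts (vertical), in CPM + 1, for the 83 members with a mean count of at least 10; points are means and bars SD over 4 libraries, and dashed lines mark 2-fold. Most members lie within 2-fold on both axes, and those apart from the rest include Rps27rt (M4 −4.59), Rpl5 (M4 3.16) and Rpl12 (read-based −2.83).

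The largest difference was that of Rps27rt, the copy whose coding bases match Rps27. Rps27rt had 152, 188, 182 and 170 M4 counts in libraries 1 to 4, against 3726, 4442, 4228 and 3618 expected counts. M4 values were lower in all libraries, by −4.59 ± 0.067 in log2 (SD, n = 4). Rps27rt stood at 2837 ± 297 TPM in the main table and ranked thirtieth among nuclear protein-coding genes, and at 105 on the same scale from length-scaled M4 counts. The ratio of Rps27rt to Rps27 was −1.41 ± 0.17 in the main table, −3.18 ± 0.33 in the read-based table and −6.34 ± 0.14 from M4 counts, in log2. Read-based counts of Rps27 itself were higher than expected counts by 1.20 ± 0.056.

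Rpl5, which with Rpl11 and the smallest ribosomal RNA of the large subunit binds Mdm2 when assembly fails, showed the opposite. Rpl5 had 4009, 4569, 4136 and 3533 M4 counts in libraries 1 to 4, against 459, 401, 462 and 319 expected counts, a log2 difference of 3.16 ± 0.18 (SD, n = 4). The transcribed pseudogene Gm15500, its closest gene, held 6963, 8030, 7399 and 5787 expected counts, so that Rpl5 had 5.50% of the pair in the main table and 6.69% in the read-based table. Rpl5 was thus among the lowest members at 68.7 ± 5.56 TPM in the main table, and stood at 582 on the same scale from length-scaled M4 counts. The level of Rpl5 is uncertain to this extent, and other members with such neighbours differed between tables by other amounts. No M4 count was matched to Gm15500.

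Rpl12, of the stalk base, was at least 2-fold apart in opposite directions in the other tables. M4 counts were higher by 1.18 ± 0.042 and read-based counts lower by −2.83 ± 0.15 in log2 (SD, n = 4). Its closest gene, the pseudogene Gm10275, held 7329, 10208, 9141 and 5963 read-based counts in libraries 1 to 4, and Rpl12 held 531, 628, 517 and 456. Rpl12 had 6.13% of the pair in the read-based table and 52.9% in the main table. No M4 count was matched to Gm10275. For Rps12 and Rps12-ps3 the member had 19.0% in the read-based table and 82.8% in the main table, and for Rpl10 and Rpl10-ps3 it had 39.8% and 84.9%. Rps12-ps3 and Rpl10-ps3 are typed protein_coding in the annotation despite their symbols.

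Shared sequence was common in the set. The median member shared 68.4% of its 31-base words with other genes, 64 of 86 shared at least 50%, and the closest gene was a pseudogene for 68 of 86. Only 6 members shared under 10%, among them Rps3 (8.95%), named after its value was seen. The share is taken over the whole coding transcript, which in Rps3 had 1908 bases, 729 of them coding. Members sharing at least 50% of words had a median absolute log2 difference between read-based and expected counts of 0.37 (n = 64), and the others 0.17 (n = 19). Between M4 and expected counts the order was the reverse, 0.37 (n = 64) and 0.68 (n = 19). The deposited tables give a posterior SD of each count, with a median of 0.497% of the count and a highest value of 4.80%, for Rpl31. Differences between tables for the named genes were far larger than that.

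Other members also differed between tables. Read-based counts were higher than expected counts for Rps29 by 1.23 ± 0.054, for Rps21 by 1.13 ± 0.037 and for Rpl39 by 0.96 ± 0.044 in log2 (SD, n = 4). M4 counts were lower for Rpl41 by −1.06 ± 0.047 and for Rpl23a by −0.87 ± 0.011. They were higher for Rps13 by 1.58 ± 0.45, for Rps23 by 1.14 ± 0.050, for Rps21 by 1.13 ± 0.020 and for Rpl28 by 1.11 ± 0.10.

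Transcripts of the members were led by non-coding annotation in a minority of genes. In all, 82.4 ± 0.103% of the members' TPM was in transcripts typed protein_coding in the main table (SD, n = 4), and 79.5 ± 1.22% of that of other nuclear protein-coding genes. The leading transcript held a median of 91.6% of a member's TPM. In 14 of 83 members the leading transcript had another type, processed transcript, retained intron or nonsense-mediated decay, and in 11 of them this was so in both tables. These genes were named for that type after their values were seen. A processed transcript held 96.1 ± 0.452% of Rpl35, the retained intron form Rps26-202 held 95.6 ± 0.488% of Rps26, and Rps20-201 held 91.6 ± 0.265% of Rps20.

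Those leading transcripts mostly held most of the coding sequence, but none held all of it. The highest share was 99.5%, in Rps18. In the 14 members a median of 98.1% of the 31-base words of the coding region of the leading coding transcript was found in the leading transcript, with 99.4% in Rpl35 and 18.2% in Rpl5. The leading coding transcript could be far longer: 3706 bases in Rps20, against 582 in Rps20-201, and 946 bases in Rpl35, against 541 in its processed transcript. The tables split reads between such forms. Shared words do not show an intact reading frame, and whether these transcripts are translated was not measured. The leading transcript differed between the tables in 14 of 83 members, among them Rps18, where Rps18-209, a processed transcript, held 52.9 ± 3.22% in the main table and the coding Rps18-201 held 61.9% in the read-based table.

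**Figure D5:**
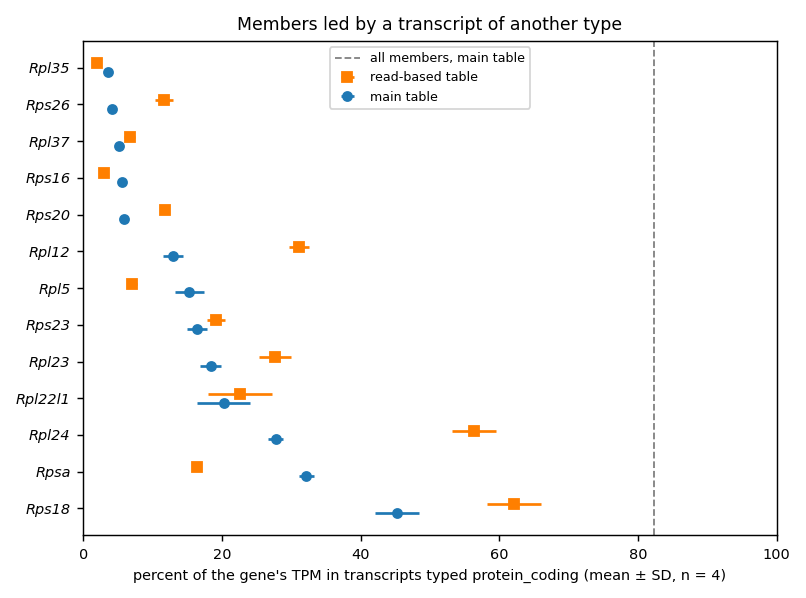
Percent of a gene's TPM in transcripts typed protein_coding, in the read-based table (orange squares) and the main table (blue circles), mean ± SD over 4 libraries, for members led by a transcript of another type. All those drawn lie left of the 82.4% of the whole set in the main table (dashed line), with circles from 3.50% for Rpl35 to 45.2% for Rps18 and squares from 2.03% to 62.1% for the same genes.

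The members with the lowest leading shares were Rpl13a (51.5 ± 1.39%), Rpl30 (52.3 ± 3.13%), Rpl10 (52.5 ± 2.46%), Rps18, Rps14 (53.1 ± 1.27%), Rps3 (53.4 ± 1.42%), Rps25 (53.9 ± 1.39%) and Rpl14 (57.7 ± 3.73%). Except in Rpl13a, Rps18 and Rpl14, over 90% of the main table's TPM of these genes stayed in transcripts typed protein_coding. In the read-based table this held for Rps14, Rps3 and Rps25, while Rpl10 had 82.6%, Rpl30 83.1% and Rpl14 22.2% in such transcripts. Rpl13a had 19 annotated transcripts and 63.2% of its TPM in coding ones in the main table.

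Genes that build, bind or regulate the ribosome were read from fixed lists. Among ubiquitin fusions and ribosome-bound factors, Fau, which encodes a ribosomal protein fused to a ubiquitin-like protein but lies outside the symbol rule, stood at 2966 ± 216 TPM (SD, n = 4). That was above the members' upper quartile of 2687 TPM. Rack1, a scaffold on the small subunit, stood at 1009 ± 28.2 TPM. All 8 measured genes of that list differed between libraries in the Poisson likelihood ratio test, as did 68.4% of all genes tested and 92.0% of other nuclear protein-coding genes of at least 100 TPM.

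Assembly genes were far lower than the members. The list medians were 41.5 TPM for 11 ribosomal RNA synthesis genes, 122 TPM for 8 snoRNP core genes, 26.9 TPM for 14 small subunit assembly genes and 55.4 TPM for 18 large subunit assembly genes, against 1479 TPM for the members. Of these genes, 10 of 11, 8 of 8, 13 of 14 and 15 of 18 differed between libraries, where 68.4% of all genes tested did. Npm1, a nucleolar chaperone, was the highest at 1120 ± 65.2 TPM, and Nop56, a core protein of methylation snoRNPs, stood at 290 ± 58.4 TPM. Myc, which drives ribosome production, stood at 109 ± 22.5 TPM.

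Regulators of TOP mRNAs had a median of 23.0 TPM (15 genes, 12 of them differing between libraries, against the same 68.4% of all genes). Mtor stood at 7.32 ± 1.20 TPM, while Cnbp, which binds TOP mRNAs, stood at 886 ± 30.5 TPM. Among 10 S6 kinase genes, excluded from the members, the median was 5.81 TPM, 5 of 8 tested differed between libraries, and Rps6ka1 led at 80.6 ± 12.2 TPM. Of 5 genes of ribosomal stress and p53, 4 differed between libraries. Trp53 stood at 342, 297, 269 and 232 TPM in libraries 1 to 4, highest in library 1, and Cdkn1a at 1.88 ± 0.550 TPM (SD, n = 4).

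Members lay on 19 chromosomes, with 14 of 86 on chromosome 7, 8 on chromosome 17, 8 on chromosome 9, 7 on chromosome 11 and 4 on the X chromosome.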

How the data were processed

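The notes deposited beside the files give mm10 for every table. Expected counts and TPM of the main gene table, and the percent of the gene held by each transcript in its transcript table, were deposited by the authors from transcriptome alignments and GENCODE M21. Estimated counts and TPM of the read-based table were deposited by the authors from the reads and an index, on GENCODE M21. Whole-number counts of the M4 table were deposited by the authors from genome alignments and GENCODE M4. Which programs and which strand setting made them is not given in the sources used here, so reads of overlapping or antisense genes, or of near-identical copies, cannot be told apart.

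Rows outside annotated genes (0.133% to 0.504% of expected counts per library) were left out. Depth was 6648385 to 9341328 expected counts per library, and 6724013 to 9607115 M4 counts. Members and gene lists were chosen with earlier results of these data known. Named genes follow a fixed rule: the 10 highest and 10 lowest members by mean TPM, 6 with the largest rise and fall of each other table, 8 with the highest and 4 with the lowest excess SD, 8 with the lowest leading transcript share, listed paralogs, the stalk proteins and Rpsa; of each other list at most the 4 highest and 2 lowest. Exceptions are marked in the text, and a few genes that the rule names are not reported here, singly or in the figures, though counts and summaries over the set include them.

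With 1 group of technical libraries no contrast exists for edgeR's quasi-likelihood test. Expected counts were rounded to whole numbers and tested between libraries with a Poisson likelihood ratio test (3 degrees of freedom, mean count of at least 10, Benjamini-Hochberg over 13045 genes) on TMM-scaled sizes from edgeR 4.0.16. These p-values measure only the spread between technical libraries. Excess SD is the SD of log2 normalised counts after the counting variance was subtracted. M4 counts were divided by the main table's effective length (minimum 50 bases), and both other tables were scaled to the main table's TPM total over 21339 matched nuclear protein-coding genes. DESeq2 1.42.0 gave alternative size factors, in R 4.3.3. The remaining values were computed in Python 3.11.15 with scipy 1.17.1, pandas 2.3.3 and numpy 2.4.6, and drawn with matplotlib 3.10.9. Floors and counting errors cover counting only. The alternatives were another table, normalization, filter, pseudocount or fold, and leaving out each library.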

Additional observations from a re-analysis of the deposited data

Results flagged for a closer look

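Of 89 results with 4 library values, 7 had 1 library far from the others by Dixon's gap test at the 95% level. Chance flags about 1 in 20 such groups. Library 2 stood apart as the highest for Rpl12 (743 TPM, the others 634 to 650), Rpl15 (936, the others 780 to 799) and Rpl8 (2345, the others 2016 to 2042). Library 1 stood apart as the lowest for Rpl14 (1690 TPM, the others 2097 to 2142), Rps26 (1105, the others 1332 to 1364) and Rps27a (1202, the others 1328 to 1336). Library 4 stood apart as the highest for the log2 ratio of Rps27rt to Rps27 (−1.16, the others −1.51 to −1.46).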

How the results depend on the processing

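No paired analysis was possible because there was 1 group. Directions and calls were the same for the subunit difference and the 9 paralog ratios under every alternative run, in a design that cannot reach 0.05. The count of members that differed between libraries was 68 to 81 under all alternatives (main 78), and 68 without library 2. The share of protein-coding TPM moved to 25.5% in the read-based table and 23.8% from M4 counts (main 22.4%). The share of counts, taken over all genes of each table, moved to 7.67% and 8.89% (main 7.02%). The M4 table does not hold the same genes as the other tables, so its share has another denominator. The median level moved to 1616 and 1609 TPM (main 1479). The leading transcript share moved to 83.3% in the read-based table (main 91.6%). The excess SD was 0.080 to 0.19 when each library was left out in turn (main 0.16), lowest without library 2. At a 1.5-fold limit, 4 members were lower and 22 higher in M4 counts (18.6% and 16.2% of all genes compared), and 12 higher in read-based counts (10.9%), against 2, 6 and 3 at 2-fold. The level of 76 of 86 single members moved by over 1 SD between libraries from M4 counts, and of 66 in the read-based table. The causes were not tested. Counting depth limits the 3 members near 0. The 4 libraries share 1 biological source, so no value here has a biological replicate.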
